A study of Mus musculus with 7 samples.

Results

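This account concerns genes of cholesterol synthesis in tumours of Met1 and DB7, a pair of transplantable mouse mammary tumour lines. The rule took all probe sets whose single platform gene symbol was one of 8 names: Hmgcs1, Idi1, Fdps, Fdft1, Sqle, Lss, Cyp51 and Insig1. Of these 8 names, 7 had such a probe set, out of 12393 genes with a probe set of 1 symbol on the array. Insig1 is not analysed here. The 7 genes had 19 probe sets between them. No lipoprotein receptor was among the 8 names, so the genes are treated as a synthesis set, and uptake is described only through a separate list.

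Total RNA of 7 frozen tumours was hybridised to 1-colour Affymetrix expression arrays, 3 of Met1 and 4 of DB7, and the values are log2 probe set summaries. Both lines are labelled as transplant tumours and are known to descend from mice with a polyoma middle T transgene driven by the mouse mammary tumour virus promoter. DB7 is known to descend from a form of middle T altered at tyrosines that dock signalling proteins, so line and transgene cannot be told apart. Both groups thus carry a middle T oncogene, and no treatment is named for either. The host strain, age and sex are not given in the labels, and each line stands for its own tumour of origin. The series' design text speaks of tumours of outcrosses of AKR/J and DBA/2J with PyMT animals, and the sample labels, which name the lines, were followed here. The labels do not tie the arrays to different animals. The p-values below therefore reflect only how much these samples vary, and some of that variation may be technical.

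Cells build cholesterol from acetyl-CoA through mevalonate, isoprenoid diphosphates and squalene to lanosterol, which is then trimmed to cholesterol. The transcription factor SREBP2, encoded by Srebf2, switches on most genes of this route when sterol in the endoplasmic reticulum is low. The INSIG proteins hold its precursor and the escort protein SCAP in place when sterol is plentiful. Its relative SREBP1, encoded by Srebf1, drives fatty acid synthesis, a programme known for its activity in the lactating mammary gland. When sterols accumulate, liver X receptors instead switch on genes for cholesterol export.

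The arrays carried epithelial transcripts in both lines: Epcam, an epithelial adhesion molecule, lay between 11.42 and 11.73 in Met1 and between 11.96 and 12.14 in DB7. Correlations across the 11704 tested probe sets were 0.983 to 0.989 among Met1 arrays, 0.962 to 0.980 among DB7 arrays and 0.886 to 0.905 between the lines. The array labelled DB7 1 stood apart from the other 3 DB7 arrays in several gene groups, among them the genes described here. For this reason results are given with all 7 arrays and again without DB7 1.

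Cholesterol synthesis genes were lower in Met1 than in DB7. In the fit of all 7 arrays, 11 of the 19 probe sets were bright enough to be tested, and 7 of them fell in Met1 and 0 rose (limma, adjusted p under 0.05). Of all 11704 probe sets tested, 17.6% were lower in Met1 by the same rule and 13.4% were higher. By the brightest tested probe set of each gene, Fdft1, Sqle, Cyp51, Fdps and Lss fell, by 0.52 to 1.09 on the log2 scale, and Hmgcs1 and Idi1 did not pass. The median difference over all 19 probe sets, tested or not, was -0.35, beside -0.05 over all probe sets of the array. All 11 tested probe sets had a negative difference, from -1.29 to -0.32. The count of 7 depends on the arrays: it was 11 without DB7 1, and 4 without Met1 1 or without Met1 2. In these 3 fits, 2205, 1589 and 1298 of all 11704 tested probe sets were lower, against 2060 with all arrays. It also depends on the filter, since 3 of the 11 lay above the array median only on some arrays. Of the 8 that lay above it on all 7 arrays, 4 fell. In a fit of such probe sets alone, 1665 of 9986 were lower. At 5 of the 11 every Met1 value lay below every DB7 value, as at 22.7% of all tested probe sets.

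**Figure D1:**
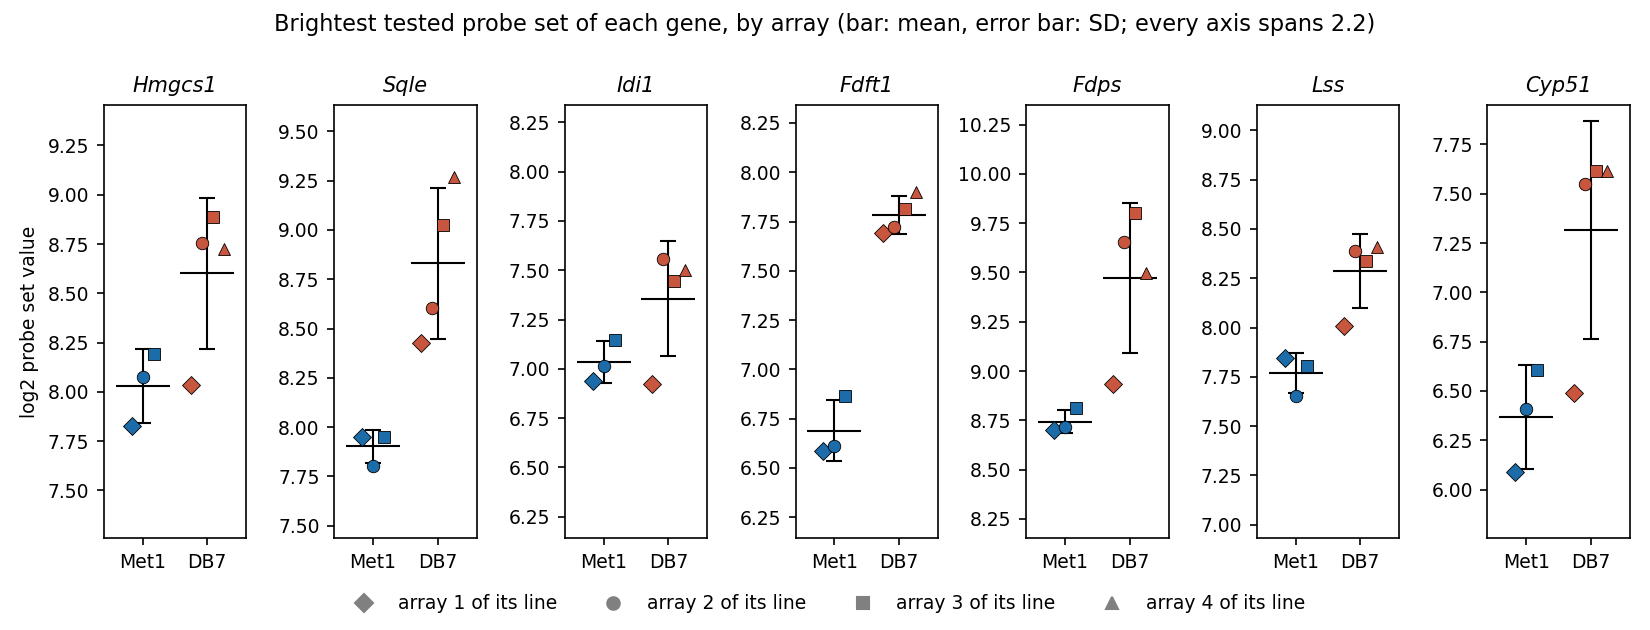
Log2 value of the brightest tested probe set of each of the 7 genes on every array, Met1 in blue and DB7 in red, with the group mean (bar) and SD (error bar). Values of the lines do not overlap for Sqle, Fdft1, Fdps and Lss, whereas DB7 1 (red diamond) lies among the Met1 arrays for Hmgcs1 and Cyp51 and below them for Idi1.

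Among the 7 genes, the pair that did not pass, Hmgcs1 and Idi1, act early in the route. Hmgcs1, the cytosolic synthase that makes hydroxymethylglutaryl-CoA, measured 7.83, 8.07 and 8.19 in Met1 and 8.03, 8.75, 8.89 and 8.73 in DB7 1 to DB7 4 (probe set 1433443_a_at). The DB7 1 value lay within the Met1 range and the other 3 DB7 values lay above it. The difference was -0.57 (SE 0.20; 8.03 ± 0.19 against 8.60 ± 0.38, SD, n = 3 and 4; limma, adjusted p = 0.0536). Without DB7 1 it was -0.76 (SE 0.11; adjusted p = 0.00148), and over the alternatives tried the adjusted p of this probe set ran from 0.00148 to 0.182. Of the other 3 probe sets of Hmgcs1, the dimmest, 1433446_at, fell by 0.55 (SE 0.17; adjusted p = 0.0353), but it entered the test through DB7 2, DB7 3 and DB7 4 alone, the arrays on which it is high, and the others differed by -0.40 and -0.35 without passing.

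Idi1, the isomerase that interconverts the isoprene units, measured 6.94, 7.02 and 7.15 in Met1 and 6.92, 7.56, 7.44 and 7.50 in DB7 1 to DB7 4 (1451122_at). DB7 1 was the lowest of all 7 arrays, and the other 3 DB7 arrays were the highest. The difference was -0.32 (SE 0.15; limma, adjusted p = 0.135), the smallest among the 7 genes, and -0.47 (SE 0.08; adjusted p = 0.00409) without DB7 1, with an adjusted p between 0.00409 and 0.312 over the alternatives. Fdps, the synthase that joins isoprene units into farnesyl diphosphate, measured 8.70, 8.72 and 8.81 in Met1 and 8.93, 9.65, 9.80 and 9.50 in DB7. All Met1 values lay below all DB7 values, with DB7 1 closest to Met1. Fdps was 1.66-fold lower in Met1 (difference -0.73, SE 0.18; limma, adjusted p = 0.0161). Its call was lost without Met1 1 (0.0590) or Met1 2 (0.0597), with differences of -0.71 and -0.72.

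Among the 7 genes, Fdft1 and Sqle, which turn farnesyl diphosphate toward sterols, had the smallest adjusted p-values. Fdft1, the squalene synthase at the branch point toward sterols, measured 6.59, 6.61 and 6.87 in Met1 and 7.69, 7.72, 7.82 and 7.90 in DB7 (1448130_at). Its values were close within each line and did not overlap between the lines, and DB7 1 lay beside the other DB7 arrays. The level was 2.13-fold lower in Met1 (6.69 ± 0.15 against 7.78 ± 0.10, SD, n = 3 and 4; difference -1.09, SE 0.09; limma, adjusted p = 6.49e-05). A second probe set, 1438322_x_at, was 2.44-fold lower (6.01 ± 0.11 against 7.30 ± 0.33; adjusted p = 0.00059). Its Met1 level lay below the array medians, so this fold is approximate. The probe set entered the test through the DB7 arrays alone, on which it is high. The remaining pair, 1438918_at and 1438919_x_at, was too dim to be tested and differed by -0.07 (SE 0.13) and -0.02 (SE 0.10). The fall of Fdft1 therefore rests mainly on 1448130_at, which lay above the array median on all 7 arrays. On Met1 1 it lay just above, at 6.5862 against a median of 6.5858, so its fold is approximate too.

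Sqle, the squalene epoxidase that opens the oxygen-dependent part of the route, measured 7.95, 7.81 and 7.95 in Met1 and 8.43, 8.60, 9.03 and 9.27 in DB7. The lines did not overlap, and the DB7 arrays were spread more widely than the Met1 arrays (SD 0.38 against 0.08). Sqle was 1.9-fold lower in Met1 (difference -0.93, SE 0.19; limma, adjusted p = 0.00554) by its only probe set.

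Lss, the synthase that folds squalene epoxide into lanosterol, measured 7.85, 7.65 and 7.81 in Met1 and 8.01, 8.39, 8.34 and 8.41 in DB7 (1420013_s_at). No value overlapped, and DB7 1 again lay nearest to Met1. The difference was -0.52 (SE 0.11; 1.43-fold lower; limma, adjusted p = 0.00798). The ending of this probe set's name marks sequence that more than 1 transcript can share. Both other Lss probe sets were dim, at most 5.73, and differed by -0.20 and 0.32 without being tested.

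Cyp51, the lanosterol demethylase and the first trimming enzyme after lanosterol, measured 6.09, 6.41 and 6.61 in Met1 and 6.49, 7.55, 7.62 and 7.61 in DB7 (1450646_at). DB7 1 fell inside the Met1 range while DB7 2, DB7 3 and DB7 4 lay close together above it. The difference was -0.95 (SE 0.27; 1.93-fold lower; limma, adjusted p = 0.0271), and -1.23 (SE 0.13; adjusted p = 0.000301) without DB7 1. The mean of Met1 lay below the array medians, so the fold is approximate, and the probe set entered the test through 4 arrays. This gene no longer passed when 1 of these arrays was left out: Met1 1 (0.107), Met1 2 (0.0774), DB7 2 (0.0668), DB7 3 (0.0736) or DB7 4 (0.0657). The 2 other Cyp51 probe sets reached at most 4.66 on any array and were not tested.

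**Figure D2:**
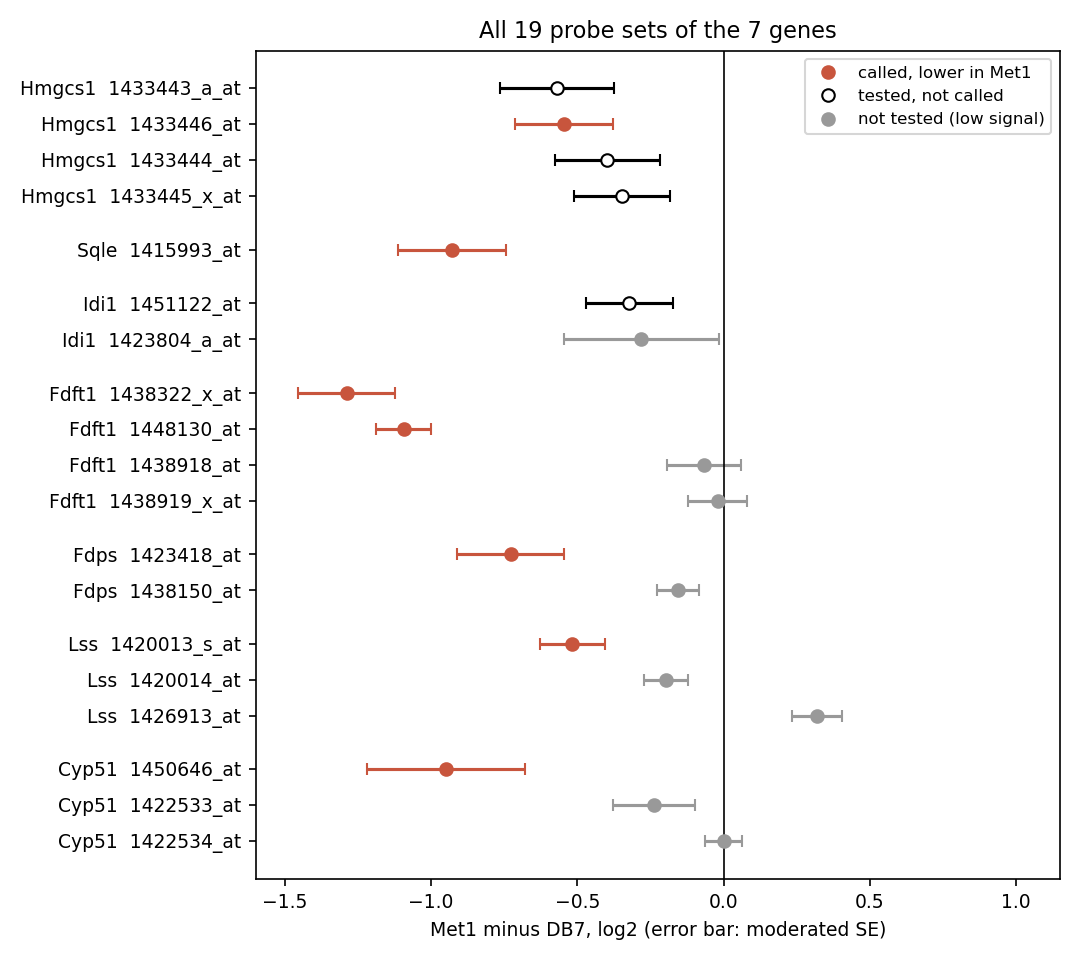
Met1 minus DB7 difference (log2, error bar: moderated SE) of all 19 probe sets, grouped by gene. All 11 tested probe sets lie left of 0, 7 of them called (red), and the 8 untested dim probe sets (grey) lie nearer to 0, between -0.28 and 0.32.

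Array DB7 1 had the lowest value of the DB7 arrays at all 11 tested probe sets, where 32.8% of all tested probe sets had it lowest. At 2 of the 11 it lay apart from the other 3 by Dixon's gap rule, met in the same direction by 1.36% of all tested probe sets. By the brightest probe sets, DB7 1 lay within the Met1 range for Hmgcs1 and Cyp51 and below it for Idi1. It lay above that range for Sqle, Fdft1, Fdps and Lss. Averaged over the 7 genes, DB7 1 departed from the mean of its line by -0.45. The departures of DB7 2, DB7 3 and DB7 4 were 0.08, 0.18 and 0.18, and those of the Met1 arrays -0.09, -0.04 and 0.12. The departure of DB7 1 was widest for Cyp51 (-0.83), Hmgcs1 (-0.57) and Fdps (-0.54) and narrowest for Fdft1 (-0.09). Without DB7 1, all 7 genes passed in limma by their brightest probe set, as did all 11 tested probe sets, where 18.8% of all tested probe sets were lower in Met1 and 13.6% higher. Without both DB7 1 and DB7 4, all 11 fell as well (17.5% lower and 14.2% higher among all tested). Leaving out the lowest DB7 array enlarges these differences by construction, so this count is no independent support.

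**Figure D3:**
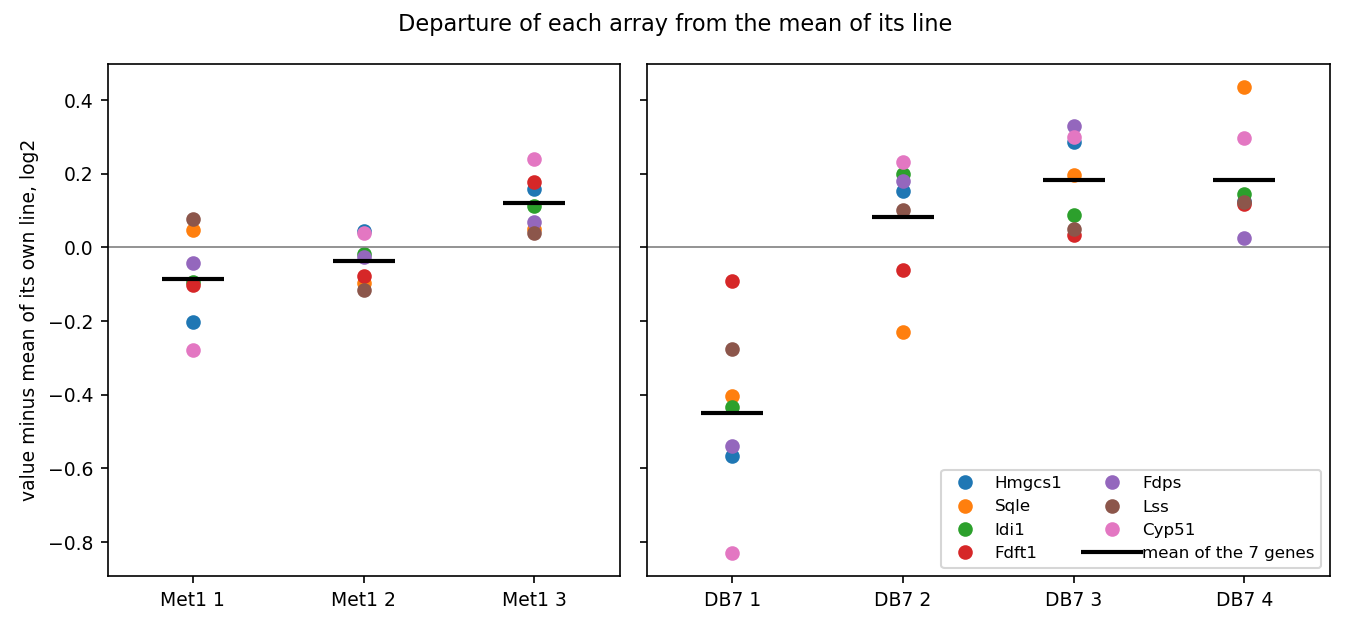
Value of each array minus the mean of its own line (log2), for the brightest tested probe set of the 7 genes, Met1 arrays at left and DB7 arrays at right. DB7 1 lies below its line's mean for every gene, by 0.83 for Cyp51 and by 0.09 for Fdft1, while the Met1 arrays stay within 0.28 of theirs.

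Markers of other cell types moved with DB7 1. The mean of 8 fibroblast markers was highest in DB7 1, at 9.71. It was 8.47 in DB7 2, 8.04 in DB7 3 and 9.09 in DB7 4, and the Met1 arrays ranged from 8.92 to 9.63. Of the 7 tested, 0 passed with all arrays, and 2 passed as higher in Met1 without DB7 1: Postn, a matrix protein, by 1.19 and Col1a1, a collagen chain, by 1.25 (limma, adjusted p = 0.00269 and 0.0400). Over all tested genes 13% rose and 17.9% fell with all arrays, and over all tested probe sets 13.6% and 18.8% without DB7 1. For 7 macrophage markers the mean was 9.44 in DB7 1, beside 8.35, 8.44 and 9.07 on the remaining arrays of that line and 8.75 to 9.27 in Met1. By the brightest probe set 0 of 7 passed, with or without DB7 1, while a dimmer probe set of C1qb, a complement subunit, rose by 0.38 with all arrays (adjusted p = 0.0398).

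Endothelial markers averaged 7.22 in DB7 1, from 6.61 to 6.97 in DB7 2 to DB7 4 and from 6.84 to 7.09 in Met1. Of 5 tested, 0 passed with all arrays and 1, Cdh5, was higher in Met1 without DB7 1 (limma, adjusted p = 0.0402), where 13.6% of all tested probe sets were higher. T cell markers averaged 6.51 in DB7 1, from 6.13 to 6.35 in DB7 2 to DB7 4 and from 6.04 to 6.24 in Met1. Adipocyte markers averaged 7.11 in DB7 1, while the remaining arrays of its line ranged from 5.40 to 6.16 and Met1 from 5.42 to 6.90. For 5 B cell markers, none above the array median on enough arrays to be tested, the means of DB7 1 (6.53) and DB7 4 (6.73) exceeded those of DB7 2 (5.29) and DB7 3 (5.42), and Met1 ranged from 5.07 to 5.30. Jchain, the joining chain of secreted antibodies, had the widest range of these 5, at 8.33 in DB7 1 and 9.33 in DB7 4 and at most 5.88 on the other arrays. The 7 sterol genes averaged 7.79, 8.32, 8.42 and 8.42 in DB7 1 to DB7 4. The part of other cells in the sterol gene values was not tested. In bulk tumours, fewer cells of a type and less RNA per cell cannot be told apart.

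Epithelial markers also differed between the lines, and most of those that passed had the direction of the sterol genes. Of 7 tested, 4 fell in Met1 and 1 rose, where 17.9% of all tested genes fell and 13% rose. Among those that fell were Cldn4, a tight junction protein, by 1.47 and Krt18, a keratin, by 1.01 (limma, adjusted p = 0.0013 and 0.000197). Cldn7, a further claudin, rose by 4.40, from 5.54 in DB7 to 9.94 in Met1. Its DB7 values lay below the array medians, so the size of this rise is approximate. The probe set entered the test through the Met1 arrays alone, on which it is high. Over all 8 markers the mean was 9.52 to 9.89 in Met1 and 9.57, 9.43, 9.47 and 9.48 in DB7 1 to DB7 4. The 6 markers above the median on all 7 arrays leave out Cldn7 and the untested Krt19. Their mean was 9.99 to 10.39 in Met1 and 10.68, 10.71, 10.75 and 10.68 in DB7 1 to DB7 4. The direction of the mean thus depended on the markers included. The part of the epithelial marker differences in the sterol gene difference was not tested.

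Proliferation markers moved with the line and with DB7 1. All 5 tested of 7 listed were lower in Met1, with a median difference of -1.42, where 17.9% of all tested genes were lower. The mean over 6 measured genes was 7.86 to 7.90 in Met1, 9.01 in DB7 1 and from 9.31 to 9.47 on the 3 remaining arrays of that line. The part of proliferation in the sterol gene difference was not tested.

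**Figure D4:**
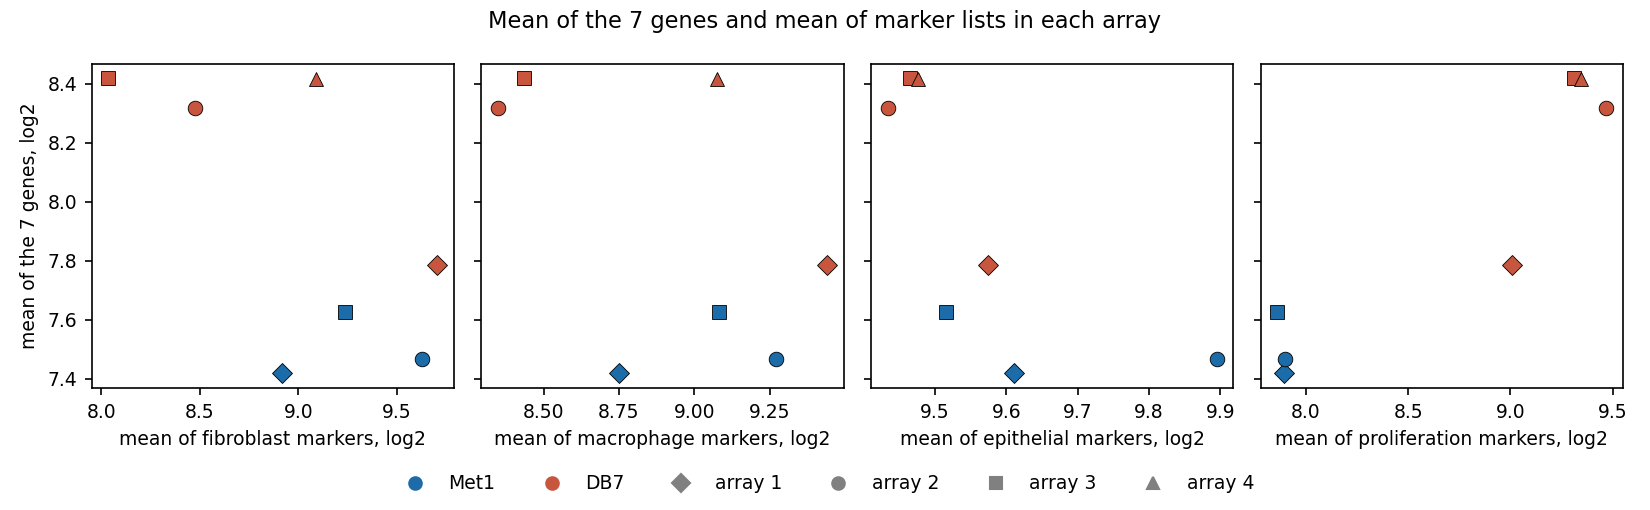
Mean log2 value of the 7 genes (vertical axis) against the mean of 4 marker lists (horizontal axes) on each array, Met1 in blue and DB7 in red, with the symbol giving the array number. DB7 1 (diamond, 7.79) lies between the Met1 arrays (7.42 to 7.63) and the other DB7 arrays (8.32 to 8.42), and the epithelial mean covers 8 markers, Cldn7 among them.

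Promoter sequences are shown for the measured members with an entry in the RefSeq promoter table, because these genes are known to share control by SREBP2 with NF-Y and Sp1. Of the 8 names 5 matched, and Hmgcs1, Idi1, Lss and Cyp51 are printed 5′ to 3′, up to the gene's annotated start in GRCm38.p6. Capitals mark matches on either strand to TCACNCCAC (the core of the sterol regulatory element), CCAAT (the NF-Y box) and GGGCGG (the GC box).
Hmgcs1 (chr13:119690101-119690350, plus strand): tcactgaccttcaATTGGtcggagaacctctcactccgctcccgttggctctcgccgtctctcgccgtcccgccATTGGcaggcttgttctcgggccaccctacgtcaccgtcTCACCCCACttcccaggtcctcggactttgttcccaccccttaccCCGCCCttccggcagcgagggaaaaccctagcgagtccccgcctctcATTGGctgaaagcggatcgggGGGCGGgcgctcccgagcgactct
Idi1 (chr13:8885356-8885605, plus strand): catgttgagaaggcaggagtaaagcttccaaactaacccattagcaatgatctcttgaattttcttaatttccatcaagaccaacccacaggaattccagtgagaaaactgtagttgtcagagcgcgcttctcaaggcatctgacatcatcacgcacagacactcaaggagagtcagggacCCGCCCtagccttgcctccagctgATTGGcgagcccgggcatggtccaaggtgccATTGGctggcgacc
Lss (chr10:76531355-76531564, plus strand): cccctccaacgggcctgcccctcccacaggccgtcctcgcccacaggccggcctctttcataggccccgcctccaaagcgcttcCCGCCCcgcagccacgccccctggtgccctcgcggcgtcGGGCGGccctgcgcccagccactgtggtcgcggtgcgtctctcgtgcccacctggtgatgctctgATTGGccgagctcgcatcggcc
Cyp51 (chr5:4104698-4104947, minus strand): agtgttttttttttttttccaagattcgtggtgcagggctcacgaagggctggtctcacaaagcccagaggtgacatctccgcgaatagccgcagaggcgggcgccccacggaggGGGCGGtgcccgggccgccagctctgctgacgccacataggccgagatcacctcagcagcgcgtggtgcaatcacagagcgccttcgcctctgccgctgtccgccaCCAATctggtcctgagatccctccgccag

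Of the sequences shown, that of Hmgcs1 held an exact match to the sterol element core, on the plus strand 137 bases before the end of the stretch. Only exact matches were sought, so any sterol element that departs from this core is left unmarked. Over the whole windows of 300 bases (250 before and 50 after the start), this core was present in 1.24% of all 32851 promoters. The Hmgcs1 window held 4 NF-Y boxes and 3 GC boxes, of which 3 and 2 lie in the stretch printed. The Idi1 window held 2 NF-Y boxes and 1 GC box, the Lss window 1 and 2, and the Cyp51 window 1 and 1. An NF-Y box was present in 37.4% and a GC box in 35.7% of all promoters, and no match in the stretches printed overlapped another. Sqle, Fdft1 and Fdps had no entry.

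The other enzymes of the route also tended below DB7. Of 14 listed genes 11 had a probe set and all 11 were tested, and 5 fell and 0 rose in Met1 (limma; over all 7482 tested genes 17.9% were lower and 13% higher). The list's median difference was -0.24, beside -0.04 over all tested genes. Lbr, which encodes a sterol reductase that is also the lamin B receptor of the nuclear envelope, fell by 1.22 (SE 0.09; adjusted p = 2.66e-05). Sc5d and Dhcr7, which act late in the route, fell by 0.78 (SE 0.15) and 0.61 (SE 0.13), and Msmo1, a methyl sterol oxidase, by 0.46 (SE 0.12; adjusted p = 0.00404, 0.0083 and 0.0211). The fifth was Tm7sf2, a further sterol reductase, at -0.36 (SE 0.11; adjusted p = 0.0315). Mvd and Hsd17b7 differed by 0.06 and 0.04, and Mvk, Pmvk, Ebp and Nsdhl by -0.24 to -0.17, none passing. The count was 7 without DB7 1 and 3 without Met1 3, and the call of Msmo1 was lost without Met1 1 (0.0785) or Met1 3 (0.0698). The list's mean was 7.63 in DB7 1, against 7.88 to 7.94 in the other DB7 arrays and 7.41 to 7.52 in Met1.

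Enzymes that use isoprenoids for purposes other than sterols gave a mixed picture. Of 9 listed, 5 had a probe set and 4 were tested, and 2 rose and 0 fell, where 13% of all tested genes rose and 17.9% fell. Nus1, a subunit of the enzyme that makes dolichol chains, rose by 1.08 (SE 0.16; limma, adjusted p = 0.00132) at 1 probe set, while its other tested probe set differed by -0.08 (SE 0.16). Fntb, the beta subunit of protein farnesyltransferase, rose by 0.35 (SE 0.11; adjusted p = 0.0357), a call lost without Met1 1 (0.128), Met1 3 (0.105), DB7 1 (0.0620), DB7 2 (0.0727) or DB7 3 (0.0516), without DB7 1 and DB7 4 together (0.0756) and without the intensity filter (0.0545). Dhdds, the catalytic partner of Nus1, and Fnta, the alpha subunit, differed by -0.21 and 0.05 without passing. Ggps1, which makes geranylgeranyl diphosphate, was not tested at any of its 4 probe sets, whose differences lay between -0.36 and -0.08.

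Among 7 measured SREBP regulators of 11 listed, 1 rose and 0 fell by the brightest probe set, against 13% and 17.9% of all tested genes. Srebf1 was 2.51-fold higher in Met1 (11.30 ± 0.27 against 9.98 ± 0.25, SD, n = 3 and 4; limma, adjusted p = 0.000423). Srebf2 differed by -0.17 (SE 0.11; adjusted p = 0.28) at the brighter of its probe sets, where it measured 8.27, 8.16 and 8.20 in Met1 and 8.54, 8.27, 8.17 and 8.54 in DB7. These values overlapped. The dimmer one fell by 0.48 (SE 0.12; adjusted p = 0.0171), at 8.01, 7.83 and 7.96 in Met1 and 8.20, 8.44, 8.31 and 8.71 in DB7, without overlap. The probe sets of Srebf2 thus differed in their call. Stard4, a sterol carrier protein, and Insig2, the partner of Insig1, differed by -0.48 (SE 0.17) and -0.34 (SE 0.13) and did not pass, while both passed without DB7 1 (adjusted p = 0.0238 and 0.0432). Ube2g2, an enzyme of ubiquitin transfer, differed by 0.17 (SE 0.10).

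Among genes of cholesterol uptake and its release in the lysosome, Lipa, Mylip and Npc2 rose and the receptor Scarb1 fell. In the uptake and lysosome list 8 of 11 genes had a probe set and 6 were tested, of which 3 rose and 1 fell, beside 13% and 17.9% of all tested genes. Lipa, the lysosomal acid lipase that frees cholesterol from its esters, rose 3.68-fold, at 9.43, 9.78 and 9.46 in Met1 against 7.92, 7.54, 7.66 and 7.59 in DB7 (difference 1.88, SE 0.12; limma, adjusted p = 1.52e-05). Its lines were far apart at this probe set, and its other tested probe set rose by 1.23. Mylip, a ubiquitin ligase that is induced by liver X receptors and marks lipoprotein receptors for degradation, rose by 0.61 (SE 0.15; adjusted p = 0.0133), and Npc2, a lysosomal cholesterol carrier, by 0.45 (SE 0.13; adjusted p = 0.0296). Scarb1, the receptor for high-density lipoprotein, fell by 0.51 (SE 0.10; adjusted p = 0.00484). Its other 2 probe sets fell too, but they entered the test through DB7 arrays alone, the line in which they are high. No receptor of the list passed as higher with all arrays: Vldlr differed by -0.10 and Lrp1 by 0.48 (adjusted p = 0.461 and 0.0844). Without DB7 1, Lrp1 passed as higher, by 0.60 (limma, adjusted p = 0.0283). In that fit 4 genes of the list rose, where 13.6% of all tested probe sets were higher. The call of Npc2 was lost without Met1 1, Met1 2, Met1 3, DB7 2 or DB7 3 (adjusted p up to 0.109), and that of Mylip without Met1 1 (0.0562), where 1 gene of the list rose.

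Of the cholesterol export genes, those that passed were higher in Met1. Of 8 listed, 6 had a probe set and 4 were tested, and 3 rose and 0 fell (13% and 17.9% of all tested genes). Abca1, which loads cholesterol onto lipid-poor apolipoproteins, measured 8.81, 8.65 and 8.83 in Met1 and 8.23, 7.24, 6.96 and 7.87 in DB7. The lines did not overlap, and DB7 1 was again the DB7 array nearest to Met1. The rise was 2.28-fold (difference 1.19, SE 0.27; limma, adjusted p = 0.00951). The other tested probe set of Abca1 rose by 0.44, but lay above the array median on the Met1 arrays and DB7 1 alone. Apoe, an apolipoprotein that carries exported cholesterol, rose by 1.20 (SE 0.29; adjusted p = 0.0138), and Abcg1, a further exporter, by 0.43 (SE 0.13; adjusted p = 0.0345). Cyp27a1, a sterol hydroxylase, differed by 0.02. Without Met1 2 or Met1 3, 1 gene rose, with adjusted p of 0.0633 and 0.0507 for Apoe and 0.0709 and 0.130 for Abcg1. Macrophages also express Apoe, Abca1 and Lipa. Within DB7 the arrays with the highest macrophage marker means, DB7 1 and DB7 4, had the highest Abca1 and Apoe values (Apoe 10.86 in DB7 1 and 10.84 in DB7 4, with the lowest, 9.64, in DB7 2). Lipa was highest in DB7 1 (7.92), while DB7 4 (7.59) lay below DB7 3 (7.66). The macrophage mean of DB7 1 (9.44) exceeded those of Met1 (8.75 to 9.27). The Abca1, Apoe and Lipa values of DB7 1 lay below those of every Met1 array. The part of macrophages in these differences was not tested.

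Fatty acid synthesis genes were split. All 13 listed genes were tested, and by the brightest probe set 5 rose and 2 fell, where the shares over all tested genes were 13% and 17.9%. Thrsp, a regulator of lipogenesis, Fasn, the fatty acid synthase, Acss2, which makes acetyl-CoA from acetate, and Me1, malic enzyme, rose 5.43-fold, 4.16-fold, 2.21-fold and 1.77-fold (limma, adjusted p = 0.000333, 4.95e-05, 0.000617 and 0.00252). The fold of Acss2 is approximate, since its DB7 values lay around or below the array medians. Scd1, the main stearoyl-CoA desaturase, rose by 0.54 at 1 of 2 probe sets and differed by -0.0018 at the other. Scd2, its relative, fell by 1.03 (SE 0.19) and Fads1, a desaturase of polyunsaturated fatty acids, by 0.41 (SE 0.13; adjusted p = 0.00383 and 0.0421). Elovl5 and Elovl6 did not pass at their brightest probe sets (limma, adjusted p = 0.0591 and 0.0520). A dimmer probe set of each fell, by 0.51 and 0.65 (adjusted p = 0.0071 and 0.0126). The number that fell was 4 without DB7 1 and 1 without Met1 2, Met1 3, DB7 2 or DB7 3. The list's median difference was 0.03.

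**Figure D5:**
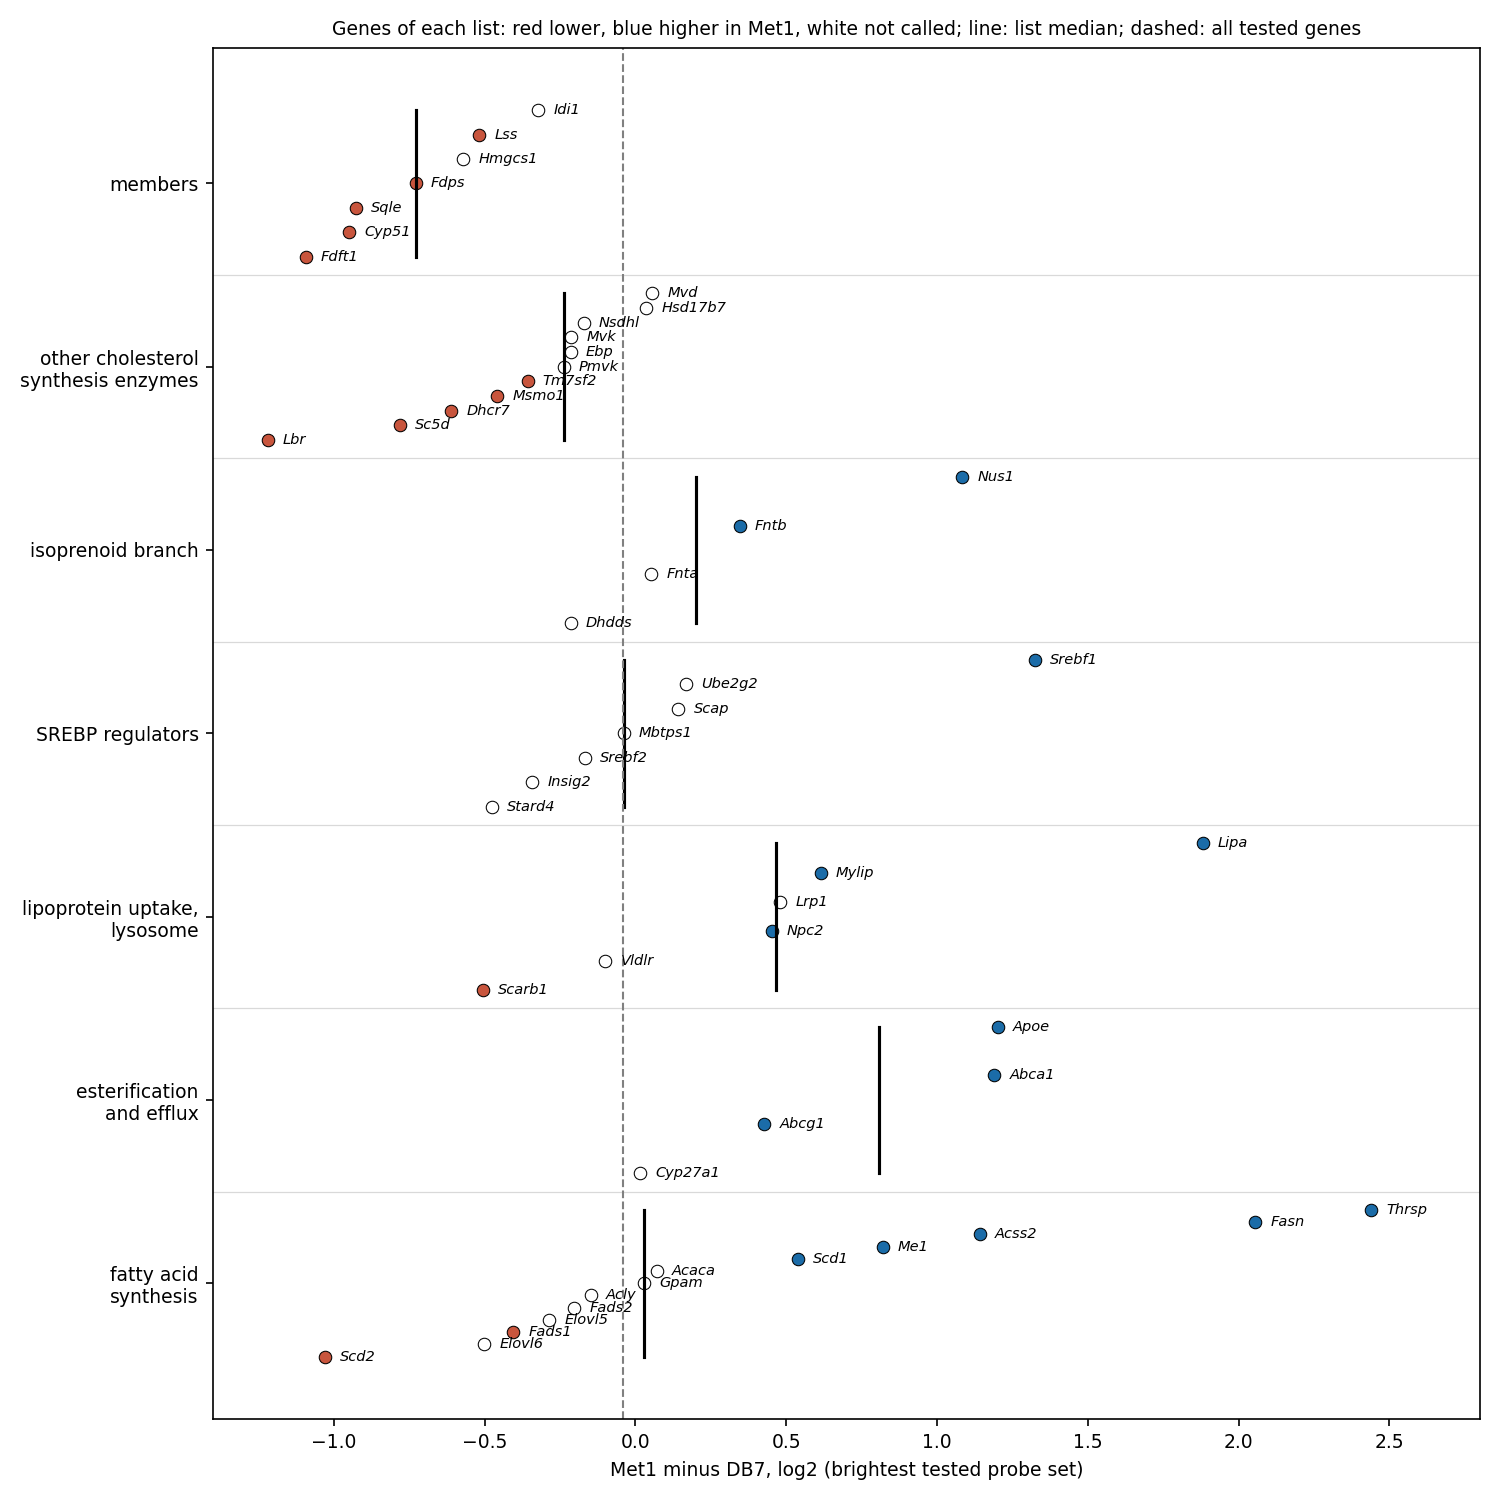
Met1 minus DB7 difference (log2) of the brightest tested probe set of each gene in 7 lists, with called genes in red (lower in Met1) or blue (higher), list medians as solid lines and the median of all tested genes dashed. The synthesis lists lie to the left, with medians of -0.73 and -0.24. The list of uptake and lysosome genes and that of efflux lie to the right, at 0.47 and 0.81. Among the receptors of the uptake and lysosome list, Scarb1 was called lower with all arrays, and Vldlr and Lrp1 were not called. Without DB7 1, Lrp1 was called higher.

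Probe sets outside the lists were ranked by the likeness of their within-line pattern to that of the 7 genes, as the correlation over 7 arrays of values minus the line mean, among 2129 tested probe sets with an SD of at least 0.2. The 6 highest were those of Ddx5, an RNA helicase (0.97), Ccnh, cyclin H (0.97), Trip13, an ATPase of the mitotic checkpoint (0.97), Dnlz, a mitochondrial chaperone partner (0.97), Mad2l1, a spindle checkpoint protein (0.96), and Snrpd3, a core spliceosome protein (0.96). All 6 had their lowest DB7 value in DB7 1, which the choice by likeness to these genes favours. Their difference between the lines was not alike: Trip13 and Mad2l1 fell by 1.01 and 0.72, Ddx5 rose by 0.52, and Ccnh, Dnlz and Snrpd3 did not pass (limma, adjusted p = 0.00237, 0.00698, 0.0369, 0.0959, 0.673 and 0.375). Among the 7 genes themselves, the same correlation of each with the mean of the other 6 was 0.83 to 0.97 for Cyp51, Hmgcs1, Idi1, Fdps and Lss, and lower for Sqle (0.67) and Fdft1 (0.60).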

How the data were processed

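Per the labels' protocols, RNA was extracted with Trizol from snap-frozen tumours and labelled by the Affymetrix procedure. The files deposited hold 1 log2 value per probe set and array, with base 2 judged from the range. RMA and MAS5 appear in the submitters' processing notes, with no role stated, and further steps are not given here. Of 22690 probe sets, 64 controls were left out. Platform annotation gave 1 symbol to 20380, several to 691 and none to 1555. Probe sets above the array median on at least 3 of 7 arrays were tested (11704).

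The lines were compared by a two-sided test in limma 3.58.1 (R 4.3.3), using lmFit and eBayes with an intensity trend and group as the only term, Benjamini-Hochberg adjusted over all tested probe sets, threshold 0.05. Errors are moderated SEs. In simulated data with 200 of 11704 probe sets changed, the fit recovered 66% of 1.5-fold, 76% of 2-fold and 100% of 4-fold changes. Of its calls, 6.56% were false. The simulation used independent normal noise with the same SD in both lines and no array set apart like DB7 1. Its rates may not hold for the arrays, where 3626 probe sets were called. The number of arrays limits precision.

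The members and lists were chosen with earlier results of these data known. Up to 4 genes per list with the smallest p are named. Scd1, Scd2, Fads1, Elovl5, Elovl6, Tm7sf2, Mvd, Hsd17b7, Mvk, Pmvk, Ebp, Nsdhl, Ggps1, Vldlr, Lrp1 and all single markers were named after their values were seen. Of 3 T cell markers tested 1 fell, and of 2 adipocyte markers 0, where 17.9% of all tested genes fell. Alternatives covered normalization, centring, filter, variance model, array weights, shared-sequence probe sets, a 1.5-fold minimum, arrays left out and a replicate block.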

Additional observations from a re-analysis of the deposited data

Results flagged for a closer look

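In 5 of the 19 probe sets of the cholesterol synthesis genes, 1 DB7 array lay far from the other 3 by Dixon's gap rule, which chance meets in about 1 in 20 groups. DB7 1 was the low array in 3 of them, at 6.23 for Hmgcs1 (1433446_at), 6.49 for Cyp51 (1450646_at) and 3.32 for the dim Idi1 probe set 1423804_a_at. Of all 11704 tested probe sets, 1.36% had DB7 1 low by this rule, beside 2 of the 11 tested here. In the dim probe sets Fdps 1438150_at and Cyp51 1422534_at, DB7 1 (3.56) and DB7 4 (4.60) were high, by small amounts near the floor of the array.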

How the results depend on the processing

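The 7 synthesis genes kept a negative difference in all alternatives in which their brightest probe set was tested. Of these 109 values, 7 lost a call and 6 gained one, and the calls of Fdft1, Sqle and Lss held in all. The number of member probe sets that fell was 4 under the stricter filter (1665 of 9986 over the array). It was 11 without DB7 1 and DB7 4 (2052 of 11704), and 4 to 11 with 1 array left out (1289 to 2205 of 11704). Without the filter 1 probe set rose, the dim Lss one (1793 of 22626 over the array). The median over all 19 ranged from -0.57 to -0.26.

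Other synthesis enzymes that fell numbered 3 at a 1.5-fold minimum and 3 to 7 with 1 array left out. Isoprenoid branch genes that rose numbered 1 without the filter, with unshared probe sets alone, without DB7 1 and DB7 4 and at a 1.5-fold minimum, and 1 to 2 with 1 array left out; 1 fell with array weights. SREBP regulators that fell numbered 2 with array weights and without DB7 1 and DB7 4, and 0 to 2 with 1 array left out. With unshared probe sets alone, 0 regulators rose, and of the uptake and lysosome list 1 rose and 0 fell, since fewer genes were tested. Genes of the uptake and lysosome list that fell numbered 0 at a 1.5-fold minimum, and those that rose 1 to 4 with 1 array left out. Efflux genes that rose numbered 1 to 3 with 1 array left out. Fatty acid genes that fell numbered 4 with array weights and without DB7 1 and DB7 4, 1 under median centring, without the filter, with the replicate block and at a 1.5-fold minimum, and 1 to 4 with 1 array left out. The difference of Cyp27a1, near 0, ran from -0.068 to 0.13 with 1 array left out and was negative in 4 of these fits. Where no cause is named, the cause was not tested.

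The titles number the arrays in both lines. Deviations of same-numbered arrays correlated at -0.17, -0.05 and 0.02, and 1 of 6 arrays correlated best with its own number, so the numbers were not taken as pairs. With the replicate block, in which DB7 4 adds nothing to the difference, 8 member probe sets fell and 2803 probe sets were called in all, against 3626.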
